A study of Homo sapiens with 18 samples.

Results

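The genes described here are 10 genes of the bone morphogenetic protein (BMP) and transforming growth factor beta (TGF-beta) pathways: the ligands BMP2, BMP4 and TGFB2, the pseudoreceptor BAMBI, the inhibitory SMADs SMAD6 and SMAD7, and the inhibitors of DNA binding ID1, ID2, ID3 and ID4. They were chosen by name, with earlier results of these data known, and all 10 were found among the 23399 genes of the expression table. The table holds 18 RNA-seq libraries of U2OS-MycER cells, a human osteosarcoma cell line transduced with a retrovirus that encodes MycER, a fusion of Myc with the estrogen receptor that becomes active when the cells receive 4-hydroxytamoxifen (OHT). Cells were transfected either with a pool of siRNAs against RAD21, a core subunit of cohesin (siRAD21), or with a control siRNA against Renilla luciferase (siCtrl). They received 400 nM OHT (OHT) or ethanol at the same time and were collected after 24 or 48 h. At 48 h siCtrl cells with and without OHT had 3 libraries each, and the other 6 groups had 2. All groups carry MycER, and 1 siRNA pool was used, so that OHT as such and MycER activity, or loss of RAD21 and other effects of the pool, cannot be told apart here.

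Values are eRPKM, the reads on exons scaled to the length of the gene and the depth of the library, as given by the authors after removal of PCR duplicates. Between 9647501 and 12678599 reads per library stood behind them. RAD21 itself fell from 70.7 ± 2.04 eRPKM (mean ± SD, n = 2) in siCtrl to 18.4 ± 0.366 (n = 2) in siRAD21 cells at 24 h, and from 93.1 ± 3.96 (n = 3) to 11.2 ± 0.105 (n = 2) at 48 h. The 2 siRAD21 OHT libraries at 48 h differed by less than the sampling noise of their reads (chi-square per gene 0.982 over 12994 genes, where pairs from the other groups gave 1.037 to 3.929). They were counted as 1 sample in means, with no SD. The fits below hold both as if they were independent. For comparisons with this group, SEs, intervals and adjusted p from limma may thus overstate the precision. The value of 1.037 belongs to the siRAD21 pair at 24 h, which was close to sampling noise. That pair is counted as 2 samples, and its SDs and comparisons may overstate the precision as well. Of the markers of osteoblasts and mesenchymal cells, VIM, SPARC and COL1A1 were at 14.5 eRPKM or more in every library, RUNX2 at 1.9 to 8.5, ALPL at 1.21 to 3.85 and BGLAP at 0.145 to 1.36, while SP7, IBSP and COL1A2 were at 0.487 or less. Of 3 epithelial markers KRT19 was listed at 0 throughout, CDH1 was at 0.559 to 1.74 and EPCAM at 2.56 to 12.9. EPCAM moved with OHT, from 4.24 to 5.06 eRPKM in siCtrl libraries to 10.3 to 12.9 in siCtrl OHT libraries at 48 h, and its part in the results below was not tested. Of 2 blood cell markers PTPRC was at 0.322 or less and CD34 at 0.491 to 2.35, highest in siCtrl libraries at 48 h (2.14 to 2.35).

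BMPs and TGF-beta are secreted dimers that bind pairs of serine/threonine kinase receptors. Receptors for BMPs phosphorylate SMAD1, SMAD5 and SMAD9, receptors for TGF-beta phosphorylate SMAD2 and SMAD3, and both kinds of SMAD enter the nucleus with SMAD4. The ID genes, SMAD6, SMAD7 and BAMBI are well known direct targets of these SMADs, and the last 3 act back on the pathway as inhibitors. In cells of the bone lineage BMPs drive differentiation, and ID proteins hold back basic helix-loop-helix factors.

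The promoters of the genes whose levels moved most, BAMBI, SMAD6 and TGFB2, and of ID1 and ID3, which moved together, are shown first. Each is the 250 bases before the RefSeq transcription start (GRCh38.p14 table) read 5′ to 3′ on the strand of the gene, which matched GRCh37, the build of hg19, at 1 place each. The TGFB2 stretch lies at chr1:218518428-218518677 (plus strand), that of BAMBI at chr10:28966200-28966449 (plus), that of SMAD6 at chr15:66994324-66994573 (plus), that of ID1 at chr20:30192842-30193091 (plus) and that of ID3 at chr1:23885993-23886242 (minus). Capitals mark matches, on either strand, to the E-box CACGTG that Myc binds, to the SMAD box GTCTG, the GC-rich SMAD element GGCGCC and the SMAD palindrome GTCTAGAC, and to the TATA box TATAAA.
TGFB2: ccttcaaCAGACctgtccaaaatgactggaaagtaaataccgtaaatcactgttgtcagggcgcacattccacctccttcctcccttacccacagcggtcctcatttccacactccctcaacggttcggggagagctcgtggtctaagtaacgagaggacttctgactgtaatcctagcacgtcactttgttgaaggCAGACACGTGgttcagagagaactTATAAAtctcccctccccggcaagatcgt
BAMBI: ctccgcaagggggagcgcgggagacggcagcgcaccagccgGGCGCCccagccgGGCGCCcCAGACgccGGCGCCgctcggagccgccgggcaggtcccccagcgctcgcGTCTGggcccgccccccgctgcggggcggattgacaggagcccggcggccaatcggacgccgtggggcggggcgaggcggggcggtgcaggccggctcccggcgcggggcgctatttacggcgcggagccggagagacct
SMAD6: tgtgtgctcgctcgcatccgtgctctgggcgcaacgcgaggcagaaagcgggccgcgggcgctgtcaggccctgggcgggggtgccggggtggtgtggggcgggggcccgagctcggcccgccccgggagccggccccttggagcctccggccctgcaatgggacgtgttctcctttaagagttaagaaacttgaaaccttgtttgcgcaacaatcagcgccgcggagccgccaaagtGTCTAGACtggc
ID1: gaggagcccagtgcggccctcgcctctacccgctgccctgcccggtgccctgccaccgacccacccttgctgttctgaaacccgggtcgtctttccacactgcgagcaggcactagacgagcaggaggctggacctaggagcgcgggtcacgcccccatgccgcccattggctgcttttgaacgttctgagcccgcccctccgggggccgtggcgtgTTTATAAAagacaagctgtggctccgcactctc
ID3: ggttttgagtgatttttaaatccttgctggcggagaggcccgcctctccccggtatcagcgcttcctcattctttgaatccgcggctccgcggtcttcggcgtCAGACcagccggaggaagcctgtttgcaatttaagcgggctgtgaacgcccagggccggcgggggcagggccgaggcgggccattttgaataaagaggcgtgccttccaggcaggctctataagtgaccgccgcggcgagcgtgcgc

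The TGFB2 stretch held 1 CACGTG, whose outermost base lay 49 bases before the start, a hexamer found in 6.31% of 34788 promoter windows of the same length. A SMAD box 53 bases before the start shared 1 base with it, another lay at 243 bases, and a TATA box at 29 bases. BAMBI held 3 copies of GGCGCC, at 209, 196 and 181 bases (16.4% of windows held at least 1), and 2 SMAD boxes, at 189 and 140 bases (38.0%). SMAD6 held the palindrome GTCTAGAC 12 bases before the start, which 0.178% of windows held. ID1 held 2 overlapping TATAAA matches, 1 on each strand, at 33 and 31 bases (10.8% of windows), and ID3 a SMAD box at 147 bases. These matches are letters in a window and say nothing of binding. The other promoters of the 9 genes in the sequence table (13 in all, with 3 starts each for BMP4 and SMAD7) were searched but are not printed, and BMP2 was not among them.

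**Figure D1:**
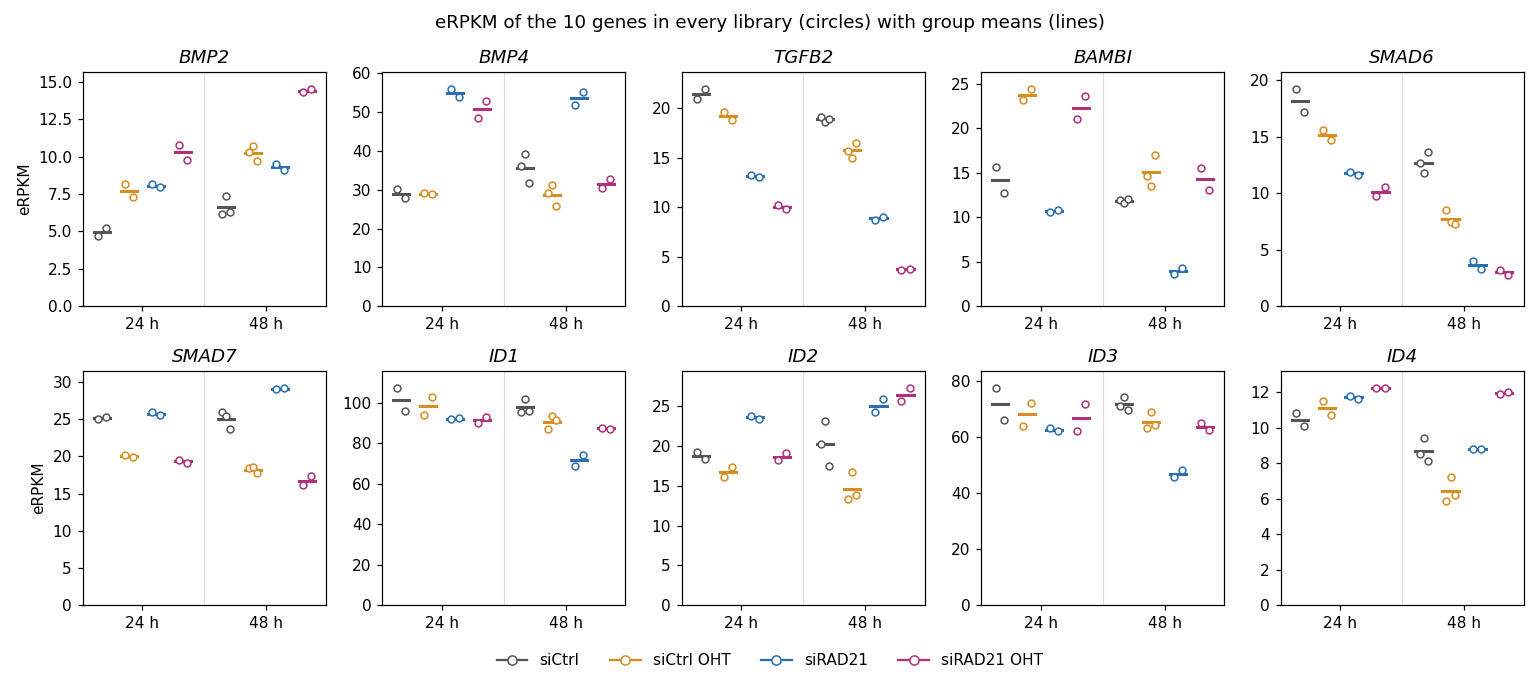
eRPKM (linear axis from 0) of the 10 genes in each library (circles) at 24 and 48 h, with the mean of each group as a line, coloured by siRNA and OHT. At 48 h BAMBI stood at 3.61 and 4.26 eRPKM in the siRAD21 libraries and at 11.6 to 17.0 in all other libraries of that time, and TGFB2 stepped down from siCtrl to siCtrl OHT, siRAD21 and siRAD21 OHT cells.

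All 10 genes passed the filter on low values (a mean of at least 1 eRPKM), as did 14993 genes in all. ID1 was the most abundant of them, with a mean of 91.6 eRPKM over the 18 libraries and rank 135 among the genes tested, followed by ID3 (65.2 eRPKM) and BMP4 (38.4). The others lay between 8.88 eRPKM for BMP2 and 22.3 for SMAD7. Levels varied most across groups for SMAD6, BAMBI and TGFB2, whose highest group mean was 6.09, 6.04 and 5.75 times the lowest, and least for ID1 (1.41 times) and ID3 (1.52 times).

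Removal of duplicates leaves at most 1 read per start position and strand (if the reads are single-end), a ceiling of 2 reads per exon base, and no gene exceeded it. ID1 stood at 37.5 to 60.7% of that ceiling, ID3 at 24.7 to 42.4% and BMP4 at 12.8 to 34.4%, while the other 7 genes stayed at or below 16.1%. These shares use the exon lengths that the values imply. For TGFB2 that is 12486 bases, against 6050 annotated exon bases, with which its share would be higher. If the reads are single-end, levels are held down and differences shrink as a gene comes nearer to the ceiling. On that assumption the removal was also undone by calculation, an alternative added once the data had been seen, and its values are given below beside the changes of ID1, ID3 and BMP4 with silencing.

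Differences between groups were tested as log2 fold changes of eRPKM + 0.5 in 1 limma fit over all libraries and all 14993 genes. A gene is said to have changed when its Benjamini-Hochberg adjusted p was below 0.05 and its log2 fold change past 0.5 in either direction, the thresholds of the study. Silencing of RAD21 for 24 h changed 4 of the 10 genes (BMP2 and BMP4 higher, TGFB2 and SMAD6 lower), against 8.43% of all genes tested. After 48 h it changed 5 of the 10 (BMP4 higher, TGFB2, BAMBI, SMAD6 and ID3 lower), against 23.7% of all genes. The median log2 fold change of the 10 genes at 48 h was -0.215, and that of all genes tested -0.014. The 10 genes were chosen with earlier results of these data known. Shares of all genes, here and below, thus do not test them as a group.

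OHT in siCtrl cells changed 2 of the 10 genes at 24 h (BMP2 and BAMBI higher), against 8.78% of all genes, and 2 at 48 h (BMP2 higher, SMAD6 lower), against 17.9%. The count at 48 h is near the background, so nothing is read from it for the 10 genes as a group. In RAD21-depleted cells OHT changed 1 gene at 24 h (BAMBI higher), against 11.9% of all genes. At 48 h it changed 5 (BMP2 and BAMBI higher, BMP4, TGFB2 and SMAD7 lower), against 28.6%.

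**Figure D2:**
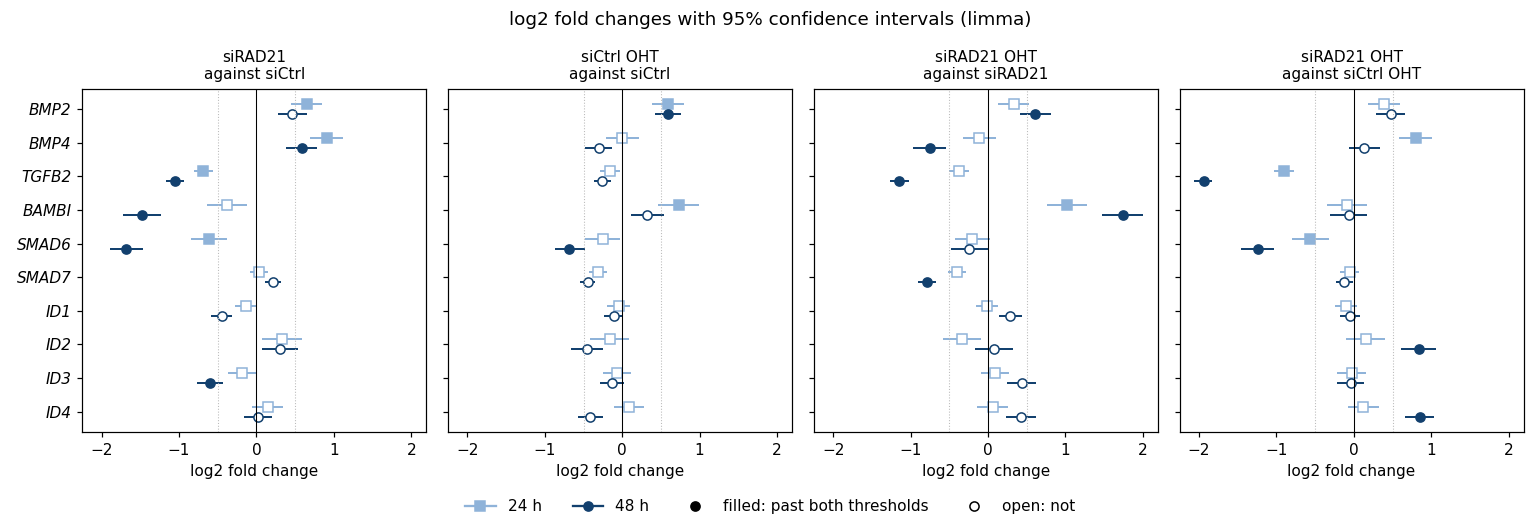
log2 fold changes (linear axis) of the 10 genes in 4 comparisons, with 95% confidence intervals from limma, at 24 h (squares) and 48 h (circles). Filled symbols passed both thresholds, and dotted lines mark log2 fold changes of 0.5 in either direction. BAMBI and SMAD6 lay far below 0 in siRAD21 cells at 48 h, and OHT raised BAMBI in RAD21-depleted cells at both times.

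TGFB2, the ligand TGF-beta 2, fell with RAD21 silencing at both times and fell further when OHT was added. The gene lies on the plus strand of chromosome 1, from position 218518678 to 218617961. At 24 h it measured 20.9 and 21.9 eRPKM in siCtrl, 19.6 and 18.8 in siCtrl OHT, 13.2 and 13.0 in siRAD21, and 10.2 and 9.77 in siRAD21 OHT libraries. At 48 h it measured 19.1, 18.6 and 18.9 eRPKM in siCtrl, 15.7, 15.0 and 16.5 in siCtrl OHT, 8.73 and 8.97 in siRAD21, and 3.67 and 3.78 in siRAD21 OHT libraries. At each time the 4 groups followed the same order, and no libraries of different groups overlapped.

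The fall of TGFB2 in siRAD21 against siCtrl cells was -0.69 on the log2 scale at 24 h (SE 0.0534, limma with Benjamini-Hochberg adjusted p = 8.12e-07) and -1.05 at 48 h (SE 0.0487, limma with Benjamini-Hochberg adjusted p = 8.60e-10). In the presence of OHT, silencing at 48 h had a larger effect on it, a log2 fold change of -1.94 in siRAD21 OHT against siCtrl OHT cells (SE 0.0487, limma with Benjamini-Hochberg adjusted p = 5.01e-12). As in every bulk measurement, less RNA per cell and fewer cells that express the gene cannot be told apart. The difference between the effects without and with OHT, the interaction, was -0.89 (95% confidence interval -1.04 to -0.74, limma with Benjamini-Hochberg adjusted p = 4.76e-06). The effect of OHT alone on TGFB2 was short of the fold threshold (-0.15 at 24 h and -0.26 at 48 h, limma with Benjamini-Hochberg adjusted p = 0.0464 and 2.05e-04), whereas in siRAD21 cells at 48 h the log2 fold change with OHT was -1.15 (SE 0.0534, adjusted p = 1.38e-09 by the same test). Cells with both treatments had 4.59-fold less TGFB2 than siCtrl cells on the scale of eRPKM + 0.5.

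The eRPKM values of TGFB2 imply an exon length of 12486 bases, against 6050 exon bases in GENCODE on GRCh37. Those of SMAD6 imply 3157 against 8556 and those of ID2 1364 against 2213, those of ID1 and ID4 lie at 0.999 and 1.0 times the annotation, and those of the other 5 genes at 0.687 to 0.889 times it. The exons counted were thus not those of this annotation for most of the 10 genes. TGFB2 shares 701 exon bases with TGFB2-AS1 on the opposite strand and 1371 with TGFB2-OT1 on its own, and how strand was treated in counting is not given in the sources used here.

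BMP4, a ligand with a central part in bone and mesoderm formation, rose with RAD21 silencing. It lies on the minus strand of chromosome 14, from position 54416454 to 54425479. In siCtrl libraries it measured 30.1 and 27.8 eRPKM at 24 h and 36.0, 39.3 and 31.6 at 48 h, and in siRAD21 libraries 55.9 and 53.8 at 24 h and 51.9 and 55.3 at 48 h. The siRAD21 libraries lay above all siCtrl libraries at both times. The log2 fold change was 0.91 at 24 h (SE 0.0936, limma with Benjamini-Hochberg adjusted p = 1.00e-05) and 0.59 at 48 h (SE 0.0854, limma with Benjamini-Hochberg adjusted p = 4.50e-05), and 1.06 and 0.68 with duplicate removal undone.

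In RAD21-depleted cells BMP4 fell with OHT at 48 h. The siRAD21 OHT libraries measured 48.6 and 52.9 eRPKM at 24 h, just below those without OHT, and 30.4 and 32.7 at 48 h, far below them. At 48 h this was a log2 fold change of -0.76 (SE 0.0936, limma with Benjamini-Hochberg adjusted p = 9.96e-06), or -0.87 with duplicate removal undone, and the values overlapped the siCtrl OHT libraries (29.2, 31.1 and 25.9 eRPKM). In siCtrl cells OHT gave a log2 fold change of -0.3 at 48 h (limma with Benjamini-Hochberg adjusted p = 0.00398), short of the fold threshold. The interaction at 48 h was -0.45 (95% confidence interval -0.71 to -0.19, limma with Benjamini-Hochberg adjusted p = 0.0201), short of the fold threshold. Its adjusted p in limma was 0.0611 when the siRAD21 OHT libraries were averaged, and 0.0019 to 0.0937 over all alternatives run. It passed the fold threshold with duplicate removal undone (-0.531), with quantile normalization (-0.523), and without siCtrl replicate 2, siCtrl OHT replicate 3 or siRAD21 OHT replicate 2 (-0.524 to -0.504). BMP4 shares 506 exon bases with an unnamed gene on the opposite strand.

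BMP2, the ligand used clinically to induce bone, lies on the plus strand of chromosome 20 (6748333 to 6760893), and rose with silencing and with OHT. It measured 4.67 and 5.23 eRPKM in siCtrl, 8.15 and 7.3 in siCtrl OHT, 8.17 and 7.93 in siRAD21, and 10.8 and 9.76 in siRAD21 OHT libraries at 24 h. At 48 h it measured 6.19, 7.36 and 6.27 eRPKM in siCtrl, 10.3, 10.7 and 9.69 in siCtrl OHT, 9.48 and 9.09 in siRAD21, and 14.3 and 14.5 in siRAD21 OHT libraries. At both times the siCtrl libraries were lowest and the siRAD21 OHT libraries highest, without overlap. OHT in siCtrl cells raised it by 0.59 at 24 h (SE 0.0891, limma with Benjamini-Hochberg adjusted p = 2.70e-04) and by 0.6 at 48 h (SE 0.0728, limma with Benjamini-Hochberg adjusted p = 1.09e-05). Silencing raised it by 0.65 at 24 h (SE 0.0891, limma with Benjamini-Hochberg adjusted p = 1.08e-04), and at 48 h gave 0.47 (SE 0.0814, limma with Benjamini-Hochberg adjusted p = 2.26e-04), short of the fold threshold unless siCtrl replicate 2 was left out (0.54). With both treatments at 48 h the log2 fold change was 1.07 (SE 0.0814, limma with Benjamini-Hochberg adjusted p = 5.67e-08). The interaction at 48 h was 0.01 (95% confidence interval -0.23 to 0.26, limma with Benjamini-Hochberg adjusted p = 0.957), so that at 48 h the fold changes of silencing and of OHT added up on the log2 scale within that interval. At 24 h it was -0.26 (95% confidence interval -0.53 to 0.01, limma with Benjamini-Hochberg adjusted p = 0.83). At that time OHT in siRAD21 cells gave 0.33 and silencing in the presence of OHT gave 0.39, both short of the fold threshold.

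BAMBI, a transmembrane pseudoreceptor that resembles a type I receptor without a kinase domain and blocks TGF-beta and BMP receptors, showed the largest interaction of the 10 genes at 48 h. It lies on the plus strand of chromosome 10, from position 28966439 to 28971861. At 24 h it measured 15.6 and 12.7 eRPKM in siCtrl, 23.2 and 24.4 in siCtrl OHT, 10.6 and 10.8 in siRAD21, and 21.0 and 23.6 in siRAD21 OHT libraries. At 48 h it measured 11.9, 11.6 and 12.1 eRPKM in siCtrl, 14.6, 13.5 and 17.0 in siCtrl OHT, 3.61 and 4.26 in siRAD21, and 15.5 and 13.1 in siRAD21 OHT libraries. At both times the OHT groups overlapped each other and lay above all libraries without OHT, and at 48 h the siRAD21 libraries stood alone at the bottom. These 2 libraries hold the fewest reads of any member (68 at the least).

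At 48 h silencing without OHT changed BAMBI by -1.48 on the log2 scale (SE 0.106, limma with Benjamini-Hochberg adjusted p = 4.54e-08). With OHT the same contrast gave -0.07 (95% confidence interval -0.3 to 0.16, limma with Benjamini-Hochberg adjusted p = 0.634). The interaction was 1.41 (95% confidence interval 1.09 to 1.73, limma with Benjamini-Hochberg adjusted p = 4.65e-05). OHT raised BAMBI in siRAD21 cells by 1.02 at 24 h (SE 0.116, limma with Benjamini-Hochberg adjusted p = 1.80e-05) and by 1.74 at 48 h (SE 0.116, limma with Benjamini-Hochberg adjusted p = 3.01e-08), and in siCtrl cells by 0.73 at 24 h (SE 0.116, limma with Benjamini-Hochberg adjusted p = 4.07e-04). In siCtrl cells at 48 h it gave 0.32 (limma with Benjamini-Hochberg adjusted p = 0.0101), short of the fold threshold. The effect of silencing on BAMBI at 24 h was -0.39 (limma with Benjamini-Hochberg adjusted p = 0.0246) and passed the fold threshold among the alternatives run only when siCtrl replicate 2 of that time was left out (-0.53). The effect at 48 h exceeded that at 24 h by -1.1 (SE 0.157, limma with Benjamini-Hochberg adjusted p = 2.48e-04).

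**Figure D3:**
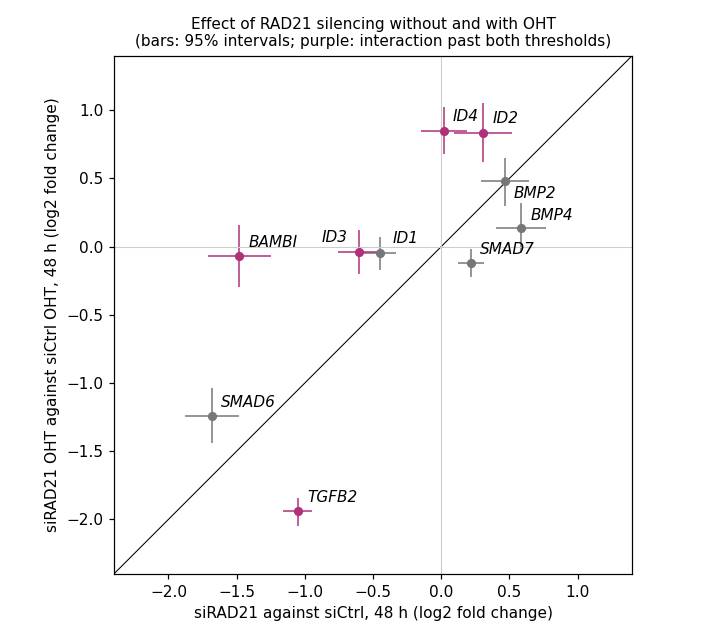
log2 fold change of RAD21 silencing at 48 h without OHT (horizontal axis) and with OHT (vertical axis), which rest on different libraries, with 95% confidence intervals. Genes on the diagonal responded alike; purple marks genes whose interaction passed both thresholds. BAMBI, ID3, ID4 and ID2 lay above the diagonal and TGFB2 below it, while BMP2 lay on it.

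SMAD6, the inhibitory SMAD that acts mainly on BMP receptors and SMAD1, fell with silencing at both times and with OHT at 48 h. It lies on the plus strand of chromosome 15 (66994574 to 67075187). At 24 h it measured 19.2 and 17.2 eRPKM in siCtrl, 15.6 and 14.7 in siCtrl OHT, 11.9 and 11.6 in siRAD21, and 9.75 and 10.5 in siRAD21 OHT libraries. At 48 h it measured 12.7, 11.8 and 13.6 eRPKM in siCtrl, 8.47, 7.45 and 7.29 in siCtrl OHT, 3.98 and 3.29 in siRAD21, and 3.22 and 2.77 in siRAD21 OHT libraries. The groups took the same order at both times without overlap, though at 48 h the lowest siRAD21 library (3.29 eRPKM) lay close to the highest siRAD21 OHT library (3.22 eRPKM).

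The log2 fold change of SMAD6 in siRAD21 against siCtrl cells was -0.61 at 24 h (SE 0.101, limma with Benjamini-Hochberg adjusted p = 5.12e-04) and -1.68 at 48 h (SE 0.0924, limma with Benjamini-Hochberg adjusted p = 3.84e-09), the largest fall of the 10 genes in that comparison. The effect at 48 h exceeded that at 24 h by -1.07 (SE 0.137, limma with Benjamini-Hochberg adjusted p = 1.04e-04). Over the same time RAD21 itself moved further from siCtrl by -1.08 on the log2 scale (limma with Benjamini-Hochberg adjusted p = 5.34e-07). OHT changed SMAD6 in siCtrl cells at 48 h by -0.68 (SE 0.0826, limma with Benjamini-Hochberg adjusted p = 1.00e-05), and in siRAD21 cells it gave -0.24 (95% confidence interval -0.46 to -0.02, limma with Benjamini-Hochberg adjusted p = 0.0538). The interaction of 0.44 (limma with Benjamini-Hochberg adjusted p = 0.0324) was short of the fold threshold. Its adjusted p in limma was 0.0731 when the siRAD21 OHT libraries were averaged, and 0.00276 to 0.153 over all alternatives run. It passed the fold threshold with quantile normalization (0.599), and without siCtrl OHT replicate 1, siRAD21 replicate 1 or siRAD21 OHT replicate 2 (0.505 to 0.562).

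SMAD7, the inhibitory SMAD that acts on both TGF-beta and BMP receptors (chromosome 18, minus strand, 46446223 to 46477335), was lower in libraries with OHT than in those without. Without OHT it measured 25.0 and 25.2 eRPKM in siCtrl and 25.9 and 25.5 in siRAD21 libraries at 24 h, and 26.0, 25.4 and 23.6 against 29.0 and 29.1 at 48 h. With OHT it measured 20.2 and 19.9 eRPKM in siCtrl and 19.5 and 19.1 in siRAD21 libraries at 24 h, and 18.4, 18.5 and 17.7 against 16.1 and 17.3 at 48 h. All 9 libraries with OHT lay below all 9 without it. The log2 fold change with OHT was -0.78 in siRAD21 cells at 48 h (SE 0.0498, limma with Benjamini-Hochberg adjusted p = 1.97e-08). It was -0.44 in siCtrl cells at 48 h (limma with Benjamini-Hochberg adjusted p = 6.94e-07), and -0.32 and -0.4 in siCtrl and siRAD21 cells at 24 h (limma with Benjamini-Hochberg adjusted p = 4.01e-04 and 3.47e-05), which did not reach the fold threshold. Silencing gave 0.22 at 48 h (limma with Benjamini-Hochberg adjusted p = 9.94e-04), also short of it.

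ID1 and ID3 (chromosome 20, plus strand, 30193086 to 30194318, and chromosome 1, minus strand, 23884417 to 23885992) encode helix-loop-helix proteins without a DNA-binding region and are the most used readouts of BMP signalling. Both were lower in siRAD21 cells at 48 h than in any other group. ID1 measured 95.4, 102.0 and 95.8 eRPKM in siCtrl, 87.0, 93.2 and 91.2 in siCtrl OHT, 68.8 and 74.2 in siRAD21, and 87.5 and 87.0 in siRAD21 OHT libraries at 48 h. ID3 measured 71.2, 74.4 and 69.9 eRPKM in siCtrl, 63.2, 68.9 and 64.4 in siCtrl OHT, 45.8 and 48.3 in siRAD21, and 65.0 and 62.6 in siRAD21 OHT libraries. For both genes the siRAD21 libraries lay below all others at 48 h, and the siRAD21 OHT libraries overlapped the siCtrl OHT libraries. At 24 h ID1 lay between 90.1 and 107.0 eRPKM and ID3 between 62.3 and 77.5 over all 8 libraries.

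ID3 changed with silencing at 48 h by -0.6 on the log2 scale (SE 0.0736, limma with Benjamini-Hochberg adjusted p = 8.44e-06), by -0.716 with duplicate removal undone and by -0.492 with quantile normalization, which is short of the fold threshold. ID1 gave -0.45 (SE 0.0557, limma with Benjamini-Hochberg adjusted p = 1.05e-05), also short of it, but -0.584 with duplicate removal undone and -0.502 without siRAD21 replicate 2. With OHT the same contrast gave -0.05 for ID1 (95% confidence interval -0.17 to 0.07, limma with Benjamini-Hochberg adjusted p = 0.491) and -0.04 for ID3 (95% confidence interval -0.2 to 0.12, limma with Benjamini-Hochberg adjusted p = 0.715). The interaction was 0.57 for ID3 (95% confidence interval 0.34 to 0.79, limma with Benjamini-Hochberg adjusted p = 0.00225), 0.67 with duplicate removal undone and 0.484 with quantile normalization, which is short of the fold threshold. For ID1 it was 0.4 (limma with Benjamini-Hochberg adjusted p = 0.00378), and 0.511 with duplicate removal undone. At 24 h neither gene passed the test with silencing, with log2 fold changes of -0.14 and -0.19 (limma with Benjamini-Hochberg adjusted p = 0.122 and 0.103).

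**Figure D4:**
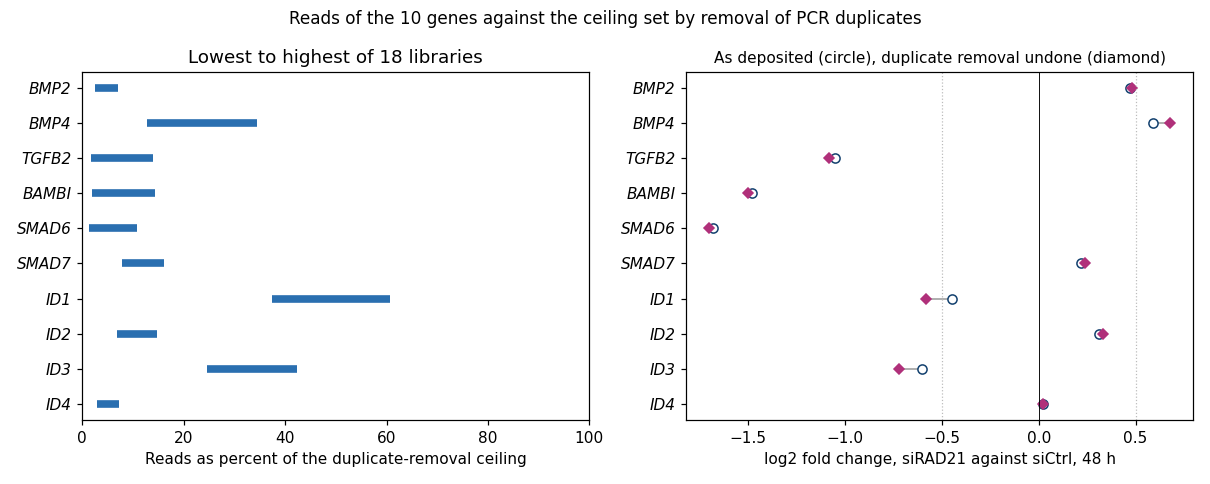
Left, reads of each gene as a percentage of the ceiling set by duplicate removal (linear axis from 0 to 100%), from the lowest to the highest of the 18 libraries. Right, log2 fold change of siRAD21 against siCtrl cells at 48 h as deposited (circles) and with duplicate removal undone (diamonds), with dotted lines at 0.5 in either direction. The value of ID1 moved from -0.45 to -0.58 and that of ID3 from -0.6 to -0.72. Those of the 7 genes at or below 16.1% of the ceiling, by the lengths that the values imply, moved by little.

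ID2 and ID4, of the same family, had other patterns than ID1 and ID3. ID2 (chromosome 2, plus strand, 8818975 to 8824591) measured 20.2, 23.1 and 17.5 eRPKM in siCtrl, 13.3, 16.7 and 13.8 in siCtrl OHT, 24.2 and 25.9 in siRAD21, and 25.6 and 27.2 in siRAD21 OHT libraries at 48 h. ID4 (chromosome 6, plus strand, 19837601 to 19842428) measured 8.53, 9.43 and 8.11 eRPKM in siCtrl, 5.87, 7.22 and 6.18 in siCtrl OHT, 8.8 and 8.77 in siRAD21, and 11.9 and 12.0 in siRAD21 OHT libraries. The siCtrl OHT libraries were the lowest for both genes, and for ID4 the siRAD21 OHT libraries were the highest without overlap. At 24 h ID2 lay at 23.8 and 23.4 eRPKM in siRAD21 and between 16.1 and 19.2 in the other 6 libraries, and ID4 between 10.1 and 12.2 in all 8.

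In the presence of OHT at 48 h, silencing raised ID2 by 0.84 (SE 0.101, limma with Benjamini-Hochberg adjusted p = 1.28e-05) and ID4 by 0.85 (SE 0.079, limma with Benjamini-Hochberg adjusted p = 1.13e-06). Without OHT it gave 0.31 for ID2 (limma with Benjamini-Hochberg adjusted p = 0.0182) and 0.02 for ID4 (95% confidence interval -0.15 to 0.19, limma with Benjamini-Hochberg adjusted p = 0.865). The interaction of ID4 was 0.83 (95% confidence interval 0.59 to 1.07, limma with Benjamini-Hochberg adjusted p = 2.52e-04). That of ID2 was 0.53 (95% confidence interval 0.22 to 0.84, limma with Benjamini-Hochberg adjusted p = 0.0209), but its adjusted p was 0.0647 in limma with Benjamini-Hochberg adjustment when the siRAD21 OHT libraries were averaged, and the call was also lost with quantile normalization (0.419), with the compared groups alone in the fit, and without siCtrl replicate 2, siCtrl OHT replicate 1 or 3, siRAD21 replicate 1 or siRAD21 OHT replicate 2 (0.435 to 0.495). OHT in siCtrl cells gave -0.46 for ID2 and -0.41 for ID4 at 48 h (limma with Benjamini-Hochberg adjusted p = 7.00e-04 and 2.25e-04), both short of the fold threshold. For ID2 it passed without siCtrl replicate 3 (-0.555) or siCtrl OHT replicate 2 (-0.554). ID2 shares 145 exon bases with ID2-AS1.

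With OHT present, silencing of RAD21 changed 3 of the 10 genes at 24 h (BMP4 higher, TGFB2 and SMAD6 lower), against 6.47% of all genes, and 4 at 48 h (ID2 and ID4 higher, TGFB2 and SMAD6 lower), against 16.2%. Cells with both treatments differed from siCtrl cells in 5 of the 10 genes at 24 h (BMP2, BMP4 and BAMBI higher, TGFB2 and SMAD6 lower), against 13.1% of all genes, and BAMBI lost its call without siCtrl replicate 2 (0.495). At 48 h they differed in 4, BMP2, TGFB2, SMAD6 and SMAD7, against 28% of all genes. BAMBI and BMP4, which had changed with silencing alone at 48 h, were at 0.26 and -0.17 in that comparison (limma with Benjamini-Hochberg adjusted p = 0.0505 and 0.103). ID3 was at -0.17 (limma with Benjamini-Hochberg adjusted p = 0.0611).

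The interaction between siRNA and OHT passed both thresholds at 48 h for 5 of the 10 genes (BAMBI, ID2, ID3 and ID4 positive, TGFB2 negative), against 7.3% of all genes. At 24 h it passed for 0 of the 10 and for 0 of the 14993 genes by limma, although 906 genes (6.04%) had an unadjusted p below 0.05, TGFB2 among them (-0.22). With voom on the recovered reads 19 genes passed. The effect of silencing at 48 h differed from that at 24 h for 2 genes, SMAD6 and BAMBI, against 10.7% of all genes. That of OHT in siCtrl cells differed for 0 of the 10 genes, against 1.77% of all genes. ID4 came nearest (-0.49, limma with Benjamini-Hochberg adjusted p = 0.0254) and passed with voom. In the limma fit 1 of the 10 genes had an adjusted p below 0.05, against 4.17% of all genes, and 4 had an unadjusted p below 0.05. The share of all genes at that unadjusted level is not given here, so nothing is read from the 4. Between 24 and 48 h in siCtrl cells 0 of the 10 genes passed both thresholds, against 12.4% of all genes. Of the 10 genes 5 had an adjusted p below 0.05 (limma with Benjamini-Hochberg adjustment), against 45.2% of all genes, so nothing is read from that count. An unadjusted p below 0.05 was found for 6, with no share of all genes given here. SMAD6, at -0.5, passed the fold threshold with voom.

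Genes of the same pathway were grouped into 7 lists with 126 genes, of which 87 were tested. For comparison with the counts at 48 h below, 23.7% of all genes changed with silencing and 17.9% with OHT in siCtrl cells, in either direction. Of 13 other ligands, 1 was higher and 6 were lower in siRAD21 than in siCtrl cells at 48 h. GDF15, a stress-induced ligand, was at 6.3 ± 0.641 eRPKM (n = 3) in siCtrl and 23.3 ± 2.74 (n = 2) after silencing, which is 1.81 on the log2 scale (limma with Benjamini-Hochberg adjusted p = 2.63e-07). GDF11 fell from 29.5 ± 2.19 (n = 3) to 9.57 ± 0.221 eRPKM (n = 2), and BMP6, BMP7 and TGFB3 fell by 0.78, 0.6 and 0.89 on the log2 scale. The other ligands that were lower, named after their values were seen, were INHBA, which encodes a subunit of activin and fell from 56.0 ± 5.21 (n = 3) to 28.8 ± 1.4 eRPKM (n = 2), and AMH at -0.83. TGFB1 gave -0.31, short of the fold threshold. With OHT 3 ligands were higher and 2 lower, among them BMP6, which rose from 3.49 ± 0.416 to 9.33 ± 0.656 eRPKM (n = 3 each).

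Of 13 receptors and co-receptors 2 changed with silencing at 48 h, both of them higher, and 3 with OHT, all of them lower, near or below the shares among all genes given above. BMPR2, the type II receptor of BMPs, did both: it measured 12.5 ± 0.811 eRPKM (n = 3) in siCtrl, 25.2 ± 0.988 (n = 2) in siRAD21 and 6.18 ± 0.558 (n = 3) in siCtrl OHT cells, log2 fold changes of 0.99 and -0.96. ENG, a co-receptor, gave 0.84 with silencing. The kinases TGFBR1 and TGFBR2 gave 0.23 and 0.17 with silencing and BMPR1A gave -0.19, all short of the fold threshold.

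Among the 17 signalling SMADs and their regulators 1 was higher and 2 were lower with silencing. SMAD5, which carries BMP signals, fell from 30.6 ± 0.749 (n = 3) to 14.6 ± 0.108 eRPKM (n = 2), a log2 fold change of -1.04 (limma with Benjamini-Hochberg adjusted p = 1.42e-08), and had fallen by 1.02 on the log2 scale at 24 h. SMAD2, which carries TGF-beta signals, fell by 0.65, and SMAD4 gave -0.01. With OHT 0 of the 17 passed both thresholds in limma, although 10, SMAD2 and SMAD5 among them, had an adjusted and unadjusted p below 0.05 at smaller fold changes. Among all genes 53.3% had an adjusted p below 0.05 in that comparison, so nothing is read from the count of 10.

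Of 15 antagonists and latency proteins 3 were higher and 3 lower with silencing, and 5 changed with OHT, all of them lower. FST, the activin antagonist follistatin, was at 21.8 ± 1.82 eRPKM (n = 3) in siCtrl, 51.3 ± 1.35 (n = 2) in siRAD21 and 13.5 ± 1.61 (n = 3) in siCtrl OHT cells. SOSTDC1, an antagonist of BMPs, was at 5.73 ± 0.223 eRPKM (n = 3) in siCtrl, 1.2 ± 0.213 (n = 3) in siCtrl OHT and 0.136 ± 0.0877 (n = 2) in siRAD21 cells, the last so low that its fold depends on the 0.5 added. NOG, which encodes noggin, gave -0.08 with silencing and -0.15 with OHT. LTBP1, which tethers latent TGF-beta in the matrix, fell by 1.17 on the log2 scale with OHT.

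Response genes of TGF-beta and BMP outside the 10 genes changed in both directions with silencing at 48 h. Those that changed with OHT in siCtrl cells at that time were all lower. Of 19 other TGF-beta response genes 2 were higher and 5 lower with silencing, and 7 changed with OHT, all of them lower. SNAI2, a repressor of epithelial genes, fell from 14.7 ± 2.46 (n = 3) to 2.78 ± 0.0583 eRPKM (n = 2) with silencing and to 6.58 ± 0.753 (n = 3) with OHT, while ACTA2, smooth muscle actin, rose from 2.6 ± 0.148 (n = 3) to 9.67 ± 1.7 eRPKM (n = 2) with silencing. FN1, which encodes fibronectin, fell with OHT by 1.13 on the log2 scale. Of 7 other BMP response genes 1 was higher and 2 were lower with silencing (TBX3 at -1.4 and HEY1 at -0.91), and 2 were lower with OHT (TBX3 at -0.95 and RUNX2 at -0.84). Of the 3 helix-loop-helix partners of ID proteins, TCF3 fell by 0.78 with silencing and TCF4 by 0.82 with OHT. The lists were chosen with results of these data known, and nothing particular to them is read from these counts.

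**Figure D5:**
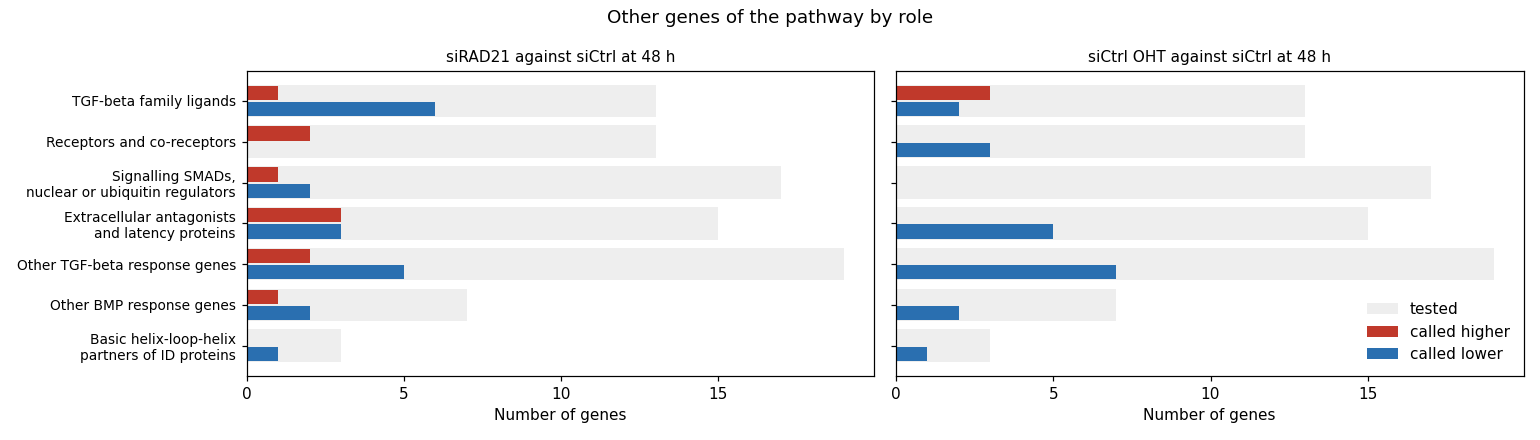
Number of genes tested (grey), called higher (red) and called lower (blue) in each list of other pathway genes, at 48 h with RAD21 silencing (left) and with OHT in siCtrl cells (right). Of 13 other ligands 6 were lower with silencing, and of 19 other TGF-beta response genes 7 were lower with OHT. Among all genes tested, 23.7% changed with silencing and 17.9% with OHT, in either direction.

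Over the 8 group means of log2(eRPKM + 0.5), ID1 and ID3 had the most alike patterns among the 10 genes (Pearson r = 0.97, n = 8 groups), followed by SMAD6 with TGFB2 (0.88). BMP2 ran opposite to TGFB2 (-0.86) and to SMAD6 (-0.82). These correlations are descriptions over 8 groups that share siRNA, OHT and time, with no test. Among all genes tested, the pattern most like that of BAMBI was that of FGFR4 (0.992), a receptor of fibroblast growth factors, with its lowest group mean (11.1 eRPKM) in siRAD21 cells at 48 h as well. The pattern most like that of TGFB2 was that of ITSN1 (0.995), whose lowest mean was 8.29 eRPKM in siRAD21 OHT cells at 48 h. For ID1 it was KIF18A (0.981), for ID2 OPLAH (0.973), for ID3 HLTF (0.971) and for ID4 B9D2 (0.973). For SMAD6 it was ZBTB14 (0.989), for SMAD7 RRBP1 (0.994), for BMP2 RFK (0.992) and for BMP4 TMEM130 (0.981).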

How the data were processed

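The 18 libraries of rRNA-depleted RNA were grouped by siRNA, OHT and time from their labels. The authors trimmed the reads, aligned them to hg19 with TopHat2 (version 2.0.8 per the labels), discarded PCR duplicates and deposited RPKM values computed on exons (eRPKM). featureCounts (version 1.4.5) is among the tools of the submitters' processing notes. The study describes its libraries as biological replicates. The gene annotation used for counting is not given in the sources used here.

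The deposited RPKM values are whole multiples of 1 read, which gave the depth of every library and whole reads (within 0.02) for 21561 genes with 99.91 to 99.92% of the depth. With that depth the fewest reads behind a value of the 10 genes were 68 and the most 3463. In limma 3.58.1 (R 4.3.3) each of the 8 groups was given a mean of log2(eRPKM + 0.5), with a variance trend and no block, for 14993 genes with a mean of at least 1 eRPKM. All groups shared 1 estimate of the spread. Thresholds were a Benjamini-Hochberg adjusted p below 0.05 within each comparison and a log2 fold change past 0.5. The procedure was tested on simulated data. Deviations from the group means in siCtrl and siCtrl OHT libraries of the same replicate number at 48 h had correlations of 0.258, 0.13 and 0.157. Those of libraries with unlike numbers are not given here, so these values do not settle whether replicate numbers pair libraries. A replicate block was run as an alternative.

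The 10 genes and the lists were chosen with earlier results of these data known. Besides the 10 genes, all named, RAD21 is given as a check of the labels. Genes of the lists are named if they are among the 2 with the largest change in a list at 48 h, or belong to a fixed set of ligands (TGFB1, TGFB3, BMP6, BMP7), receptors, SMADs, antagonists and helix-loop-helix partners set beside the members, with INHBA and AMH added after seeing values. Alternatives were pseudocounts of 0.1 and 1, no filter or at least 5 eRPKM, median centring, quantile normalization, only the groups compared, a replicate block, no variance trend, a robust fit, no fold threshold or one of 1, voom on the recovered reads, averaged siRAD21 OHT libraries and leaving out each library. Undoing duplicate removal was added after seeing the data: reads k of a gene with M start positions became -M ln(1 - k/M). Tables were handled with pandas 2.3.3 and numpy 2.4.6 in Python 3.11.15, and figures with matplotlib 3.10.9. Gene positions came from GENCODE on GRCh37 and promoters from RefSeq.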

Additional observations from a re-analysis of the deposited data

Results flagged for a closer look

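The effect of RAD21 silencing differed between cells without and with OHT at 48 h for 5 of the 10 genes by the interaction term of the limma fit, against 7.3% of all genes. As the 10 genes were chosen with earlier results known, the shares in this section do not test them as a group. The difference in log2 fold change, with OHT minus without, was 1.41 for BAMBI, 0.83 for ID4, 0.57 for ID3, 0.53 for ID2 and -0.89 for TGFB2. That of ID2 lost its call when the siRAD21 OHT libraries were averaged (limma with Benjamini-Hochberg adjusted p = 0.0647), among other settings. That of ID3 lost its call with quantile normalization (0.484). The effect of silencing also differed between times for 2 genes, against 10.7% of all genes: at 48 h minus 24 h, the log2 fold change was -1.1 for BAMBI and -1.07 for SMAD6. The effect of silencing on RAD21 mRNA moved in the same direction over that time (-1.08), while RAD21 rose by 0.39 on the log2 scale in siCtrl cells. The part of RAD21 in these differences was not tested.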

How the results depend on the processing

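The fold threshold moved the counts of changed genes most. Without it, counts among the 10 genes, each with the share of all genes at that threshold, rose to 4 with OHT in siCtrl cells (26.5%) and 5 in siRAD21 cells (35.2%) at 24 h. At 48 h they rose to 9 with silencing (57.7%), 8 with OHT in siCtrl cells (53.3%), 8 with OHT in siRAD21 cells (60.4%), 7 with both treatments (59.7%) and 9 for the interaction (17.3%). They rose to 5 for the effect of silencing between times (21.6%), 1 for that of OHT between times (4.17%) and 5 between times in siCtrl cells (45.2%). At a threshold of 1 they were 0 with silencing (1.45%), 0 with OHT (1.49%), 0 with silencing in the presence of OHT (0.854%) and 1 with both treatments (2.68%) at 24 h. At 48 h they were 3 with silencing (6.46%), 0 with OHT in siCtrl (3.44%) and 2 in siRAD21 cells (7.37%), 2 with silencing in the presence of OHT (3.77%) and 1 for the interaction (1.33%). Counts of 0 for the OHT effect between times (ID4) and between times in siCtrl cells (SMAD6) became 1 with a pseudocount of 0.1, with voom and with duplicate removal undone, and ranged from 0 to 1 when 1 library was left out. In the latter 3 and 4 libraries mattered: siCtrl 24 h replicate 2 and siCtrl 48 h replicates 1 and 3 for SMAD6, and siCtrl 48 h replicates 1 and 3, siCtrl OHT 24 h replicate 2 and siCtrl OHT 48 h replicate 2 for ID4. The cause was not tested. The replicate block also moved the count between times in siCtrl cells, from 0 to 1 (SMAD6). All other settings left the counts within 1.5 times.

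Of 1812 single-gene values, 1759 kept their direction and their call, which needs both thresholds. Of these, 105 belonged to values short of the fold threshold whose adjusted p crossed 0.05, such as SMAD7 with silencing in the presence of OHT at 48 h (limma with Benjamini-Hochberg adjusted p = 0.0407, and 0.116 with the siRAD21 OHT libraries averaged). The 9 that changed sign had been near 0: ID4 with silencing at 48 h gave -0.058 with quantile normalization and -0.017 with the block, ID2 with OHT in siRAD21 cells gave -0.022 with quantile normalization, and with 1 library left out ID4 ranged from -0.028 to 0.075, BAMBI with silencing in the presence of OHT from -0.185 to 0.048 and the interaction of BMP2 from -0.062 to 0.054. The replicate block changed 1 call among the 10 genes, SMAD6 between times in siCtrl cells (-0.504), so that this count became 1. Quantile normalization shifted the split of all calls at 24 h: with silencing 680 of 1226 were higher, against 874 of 1264 in the fit above, and with OHT in siRAD21 cells 814 of 1674, against 643 of 1785. The interaction at 24 h was called for 0 to 19 genes in the settings run.

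Groups of 2 or 3 libraries limit the precision. The siRAD21 OHT group at 48 h rests on a pair of libraries that hardly differ, and the siRAD21 pair at 24 h was close to sampling noise. How far duplicate removal held down ID1, ID3 and BMP4 depends on the reads being single-end, which is not given in the sources used here.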
